A study of Mus musculus with 55 samples.

Results

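The 10 genes described here encode 4 neurofilament subunits and 6 tubulins of neurons, and they were measured among 28492 genes in a maturation experiment and 28216 genes in a stimuli experiment. They were chosen by name, with earlier results of these data known. Counts of these genes set beside shares of all genes are therefore descriptions and not tests. Nefl, Nefm and Nefh encode the light, medium and heavy neurofilament subunits, and Ina encodes alpha-internexin. Tuba1a encodes an alpha-tubulin, and Tubb2a, Tubb2b, Tubb3, Tubb4a and Tubb5 encode beta-tubulins. All 10 passed the filter on low counts, a level above 5 CPM (counts scaled to a common library total) in at least 2 samples of a fit. The CPM values given below were also scaled with TMM factors, which the filter did not use.

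Neurofilaments are the intermediate filaments of neurons. Their subunits assemble side by side, fill the axon and set its diameter, and the heavy subunit is known to appear last as a neuron matures, whereas alpha-internexin is abundant early. Microtubules are built from dimers of alpha- and beta-tubulin, and growing neurites need a large supply of both. Tubulin mRNA is also known to be degraded when free tubulin dimers build up, and several beta-tubulins are made by glia as well as by neurons.

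RNA came from primary cultures of cortex and hippocampus of CD1 mouse embryos of mixed sex, and 3′ ends were sequenced by CEL-Seq2. In the maturation experiment (28 samples), cultures at 7DIV (days in vitro) or 23DIV, a stage the study groups as 21DIV, were left unstimulated (basal) or were treated for 15 or 180 min with 55 mM KCl, which depolarizes the membrane, or with 4APBic. The latter joins 50 µM bicuculline, which blocks GABA-A receptors, and 4-aminopyridine at 2.5 mM, which blocks potassium channels. Each condition had 3 replicates, but 4APBic at 23DIV had 2 at each time. In the stimuli experiment (27 samples), cultures at 21DIV received KCl or bicuculline alone (Bic) for 15, 45 or 180 min (2 replicates each, 3 basal), or were silenced for 48 h with 1 µM TTX, a blocker of sodium channels, and then kept in TTX (basal TTX, 4 replicates) or washed free of it (TTXw) for 15, 45 or 180 min (3, 2 and 3 replicates). The labels do not say whether replicates were separate preparations of embryos, so p-values measure the spread between these samples, which may in part be technical.

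Counts on genes per library ranged from 1659722 to 4474968 at 7DIV (n = 15), from 1784170 to 14012872 at 23DIV (n = 13) and from 1177500 to 3909487 in the stimuli experiment (n = 27). All 8 neuronal markers, among them Snap25, Syt1 and Rbfox3, were detected in every group, with a summed level between 3781 and 3920.2 CPM in 7DIV basal and between 7304 and 8517 in 23DIV basal. Glia were present too. The 9 astrocyte markers summed to between 588 and 863 CPM in 7DIV basal and between 4645 and 5669 in 23DIV basal, and the 8 markers of the oligodendrocyte lineage to between 464 and 735 and between 2426 and 3212. In such bulk samples, fewer cells of a type and less RNA per cell cannot be told apart.

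Each gene had 1 RefSeq transcript in the tables. An alternative fit on counts summed over transcripts, named below, therefore left the counts of these genes as they were. It changed those of other genes and the library totals. On GRCm38 (mm10), Nefl lies on chr14:68083863-68089095 and Nefm beside it on chr14:68119545-68125004, on the opposite strand. The counted transcripts of both do not overlap, but a longer annotated form of Nefm spans all 5233 bases of Nefl. Nefh lies on chr11:4938754-4948064 and Ina on chr19:47014681-47025327. Tuba1a was counted on chr15:98949847-98953501, Tubb2a and Tubb2b on chr13:34074278-34078008 and chr13:34127008-34130354, Tubb3 on chr8:123411553-123422015, and Tubb4a and Tubb5 on chr17:57080061-57087600 and chr17:35833920-35838301. Over the last 500 bases of its transcript, where 3′ reads fall, Tuba1a shared 53.5% of its stretches of 30 bases with Tuba1b and 47.8% with Tuba1c, and Tubb2a shared 47.8% with Tubb2b. How reads that match several genes were counted is not given in the sources used here, so the split between these pairs is uncertain. Annotated genes also overlap Tuba1a (Gm49450, 3715 bases) and Tubb3 (Gm20388, 10592 bases) on the same strand, and Ina (Nt5c2, 456 bases) on the other strand. Whether counting used strand is not given either, so reads of overlapping genes cannot be told apart. The last 500 bases of the other genes shared at most 3.82% of such stretches with another tubulin gene.

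The first comparison asked how the basal level of these genes differed between young and mature cultures. At 23DIV, Nefh was 8.32 times its 7DIV level and Nefm 1.68 times, while Ina, Tuba1a, Tubb2b, Tubb3 and Tubb5 were lower, Tubb2b the most, by a factor of 4.48. These 7 of 10 genes passed the threshold for DEG (differentially expressed genes), that is, a 1.5-fold or larger difference with adjusted p below 0.05, where 33.1% of 10510 genes tested did. The 2 higher genes stand beside 18.2% of all genes called higher, and the 5 lower genes beside 14.9% called lower. The median log2 fold change was -0.62 over the 10 genes and 0.0096 over all genes.

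Among the neurofilaments, the 7DIV basal levels of Nefh were 8.05, 17.8 and 9.21 CPM, and its 23DIV basal levels were 106, 84.2 and 82.7 CPM. Every 23DIV sample lay above every 7DIV sample, with a log2 fold change of 3.06 ± 0.26 (± SE throughout, adjusted p = 8.77e-07). Nefm stood at 37.9, 32.5 and 45.2 CPM at 7DIV and at 77.6, 62.1 and 53.2 CPM at 23DIV, again without overlap (log2 fold change 0.74 ± 0.20, adjusted p = 0.00861). Nefl, the subunit on which the others assemble, had 141, 142 and 119 CPM at 7DIV and 157, 98.0 and 82.5 CPM at 23DIV. These ranges overlapped, and the log2 difference was -0.22 ± 0.21 with a 95% interval from -0.63 to 0.19. Ina went the other way, from 418, 315 and 267 CPM to 82.5, 101 and 105 CPM (log2 fold change -1.76 ± 0.17, adjusted p = 3.74e-06). The log2 ratio of Nefh to Nefl was -3.61 ± 0.57 (SD, n = 3) at 7DIV and -0.26 ± 0.29 at 23DIV, and that of Ina to Nefl was 1.29 ± 0.24 and -0.18 ± 0.67.

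Tuba1a, the most abundant of the 10 by 3′ counts, had 11783, 12348 and 11982 CPM at 7DIV and 4062, 4517 and 4536 CPM at 23DIV (log2 fold change -1.43 ± 0.094, adjusted p = 9.39e-08). Tubb3, the beta-tubulin most used as a marker of young neurons, was at 1403, 1499 and 1755 CPM and then at 513, 424 and 523 CPM (log2 fold change -1.65 ± 0.13, adjusted p = 4.56e-07). Both fell in all 3 mature samples, far outside the spread of the young ones. Tubb2b was at 2709, 2825 and 2717 CPM at 7DIV and at 631, 556 and 619 CPM at 23DIV, whereas its neighbour on the chromosome, Tubb2a, was at 2171, 2257 and 1892 CPM and 2063, 1804 and 1978 CPM. The Tubb2b difference was -2.16 ± 0.11 on the log2 scale (adjusted p = 1.32e-08). That of Tubb2a was -0.085 ± 0.11, with overlapping samples and a 95% interval from -0.30 to 0.13. Tubb5, a widely expressed beta-tubulin, went from 3088, 2992 and 3142 CPM to 1166, 1508 and 1769 CPM (log2 fold change -1.03 ± 0.14, adjusted p = 5.04e-05). Tubb4a was the tubulin with a higher mean at 23DIV, at 655, 801 and 827 CPM against 561, 535 and 460.2 CPM. Its samples did not overlap and its adjusted p was 0.00303, but the log2 difference of 0.58 ± 0.13 was just under that of a 1.5-fold change. Summed over the 6 tubulins, the level was 2.20% ± 0.038 of the TMM-adjusted library total at 7DIV and 0.965% ± 0.058 at 23DIV (SD, n = 3 each). That total covers the genes past the filter, each by its most-counted transcript, and its TMM factor makes it differ from the plain sum of counts.

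**Figure D1:**
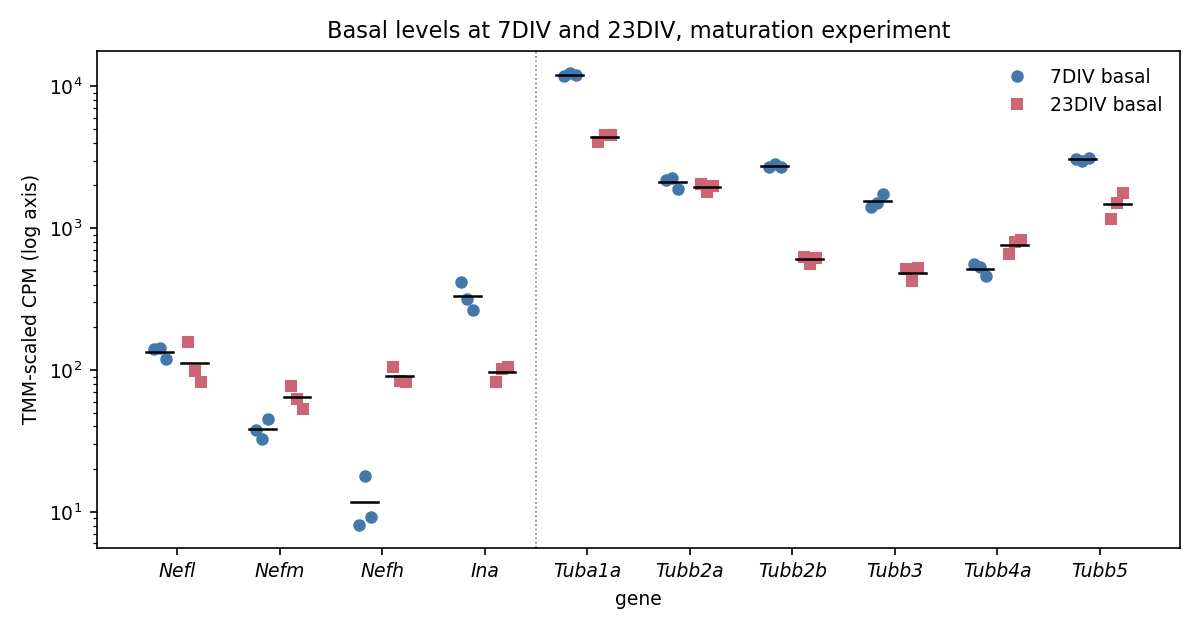
TMM-scaled CPM (log axis) of the 10 genes in the 3 basal samples at 7DIV (circles) and the 3 at 23DIV (squares) of the maturation experiment, with the mean as a bar. Nefh was between 8.05 and 17.8 at 7DIV and between 82.7 and 106 at 23DIV, while Tubb2b was at 2709 or more at 7DIV and at 631 or less at 23DIV.

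Other genes of the same machinery were read from lists. Of 6 other tubulins tested, 4 were higher at 23DIV and 0 lower, led by the alpha-tubulin Tuba4a (log2 fold change 2.58), with the gamma-tubulins Tubg2 (1.11) and Tubg1 (0.89), which nucleate microtubules. Of 20 genes for chaperones and cofactors that fold tubulin, 11 were lower and 0 higher, among them Cct4 (-1.02), Cct3 (-0.90) and Tbcb (-0.90). Of 31 microtubule-associated proteins, 19 were lower and 3 higher, with doublecortin (Dcx, -3.56), Dpysl3 (-3.15) and Map6 (-3.04) changed the most. Among 17 enzymes that modify tubulin, 5 were lower, such as the detyrosinating Vash2 (-2.96) and the acetyltransferase Atat1 (-2.42), and 3 were higher, such as the glutamylase Ttll7 (1.54). Of 3 severing enzymes tested, 2 were lower, including spastin (Spast, -1.35), and of 18 motor genes, 6 were lower, including Kif3b (-1.06), and 0 higher. Of 7 genes for neurofilament partners, 2 were higher, the linker plectin (Plec, 2.42) and the kinase activator Cdk5r2 (1.12), and of 8 other intermediate filament genes, the astrocyte filament Gfap was higher (3.28) and Prph lower (-0.90). In the same comparison, 7 of 8 neuronal, 8 of 9 astrocyte and 7 of 7 oligodendrocyte lineage markers were higher, and their part in the differences of the 10 genes was not tested.

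The next comparisons asked whether stimulation moved these genes at each stage. At 7DIV, 1 of 10 genes passed the threshold in 1 of 4 comparisons. Nefh had 2.14, 2.55 and 2.37 CPM after 180 min of KCl against 8.05, 17.8 and 9.21 CPM in basal. All 3 stimulated samples lay below all 3 basal samples, a fall by a factor of 4.67 (log2 fold change -2.22 ± 0.39, adjusted p = 9.42e-04). In this comparison 1.98% of all genes were called, 0.936% lower, and 4 of the 5 stimulation check genes (Fos, Npas4, Arc, Egr1 and Nr4a1) rose. These Nefh levels rest on few reads, since its lowest count in the maturation experiment was 5 in a library.

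The other 9 genes did not pass after 180 min of KCl at 7DIV, with log2 fold changes from -0.28 for Tubb4a to 0.34 for Ina. None of the 10 genes passed at 7DIV after 15 min of KCl or after 15 or 180 min of 4APBic, by edgeR's quasi-likelihood test or by DESeq2, and 0 had an unadjusted p under 0.05. Over all genes, the quasi-likelihood test called 0% in each of these 3 comparisons. Tubulin levels at 7DIV were close in all 5 conditions, as for Tubb3, whose means ran from 1454 ± 80.2 CPM (KCl, 180 min) to 1672 ± 128 CPM (4APBic, 15 min; SD, n = 3 each).

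At 23DIV, 6 of 10 genes passed after 180 min of 4APBic, where 14.2% of all genes did, 7.39% higher and 6.84% lower. Nefl and Nefm rose while Tuba1a, Tubb3, Tubb4a and Tubb5 fell. Nefl had 340.4 and 285 CPM against 157, 98.0 and 82.5 CPM in basal, a rise of 2.78-fold (log2 fold change 1.48 ± 0.26, adjusted p = 1.88e-04). Nefm had 143 and 99.3 CPM against 77.6, 62.1 and 53.2 CPM (log2 fold change 0.92 ± 0.22, adjusted p = 0.00434). Both stimulated samples of either gene lay above all 3 basal samples. Column headers give both 4APBic libraries at 180 min the letter E, the other 23DIV libraries C or D, and the 7DIV libraries A or B. The meaning of this letter is not given, and a difference that goes with it cannot be told apart from that of stage or of 4APBic at 180 min. Without replicate 2 of 4APBic at 180 min, the Nefm call was lost (adjusted p = 0.180). Nefh, by contrast, had 45.0 and 72.4 CPM against 106, 84.2 and 82.7 CPM, below basal in both samples but short of the threshold (log2 fold change -0.64 ± 0.24, adjusted p = 0.0596).

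Among the tubulins at 180 min of 4APBic, Tubb5 had 598 and 683 CPM against 1166, 1508 and 1769 CPM in 23DIV basal (log2 fold change -1.21 ± 0.15, adjusted p = 3.04e-06). Tubb3 had 227 and 243 CPM against 513, 424 and 523 CPM (-1.05 ± 0.17, adjusted p = 6.60e-05), and Tubb4a 355 and 443 CPM against 655, 801 and 827 CPM (-0.93 ± 0.15, adjusted p = 8.92e-05). In each of these 3 genes the stimulated samples lay below the lowest basal sample. Tuba1a changed less, from 4062, 4517 and 4536 CPM to 2795 and 2978 CPM (-0.60 ± 0.11, adjusted p = 2.11e-04). Its change lay close to 1.5-fold and dropped under it with RLE size factors, with DESeq2, in a fit on the compared groups only, and without 4APBic 180 min replicate 2 or basal replicate 2 or 3, though the adjusted p stayed at or below 0.0144 in all these fits. Tubb2a (-0.52 ± 0.15) and Tubb2b (-0.25 ± 0.13) did not reach 1.5-fold.

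The same tubulins fell after 180 min of KCl at 23DIV, where 4 of 10 genes passed, all lower, against 4.89% of all genes in either direction and 1.91% lower. Tubb3 was at 295, 255 and 339 CPM (log2 fold change -0.72 ± 0.14, adjusted p = 0.00248), Tubb4a at 541, 398 and 463 CPM (-0.70 ± 0.13, adjusted p = 0.00124) and Tubb5 at 1016, 732 and 967 CPM (-0.71 ± 0.13, adjusted p = 0.00112). All stimulated samples of the 3 genes lay below all basal samples. The change of Tubb5 fell under 1.5-fold without basal replicate 3 or KCl 180 min replicate 2, with adjusted p at or below 0.0239. KCl and 4APBic were compared with the same 3 basal samples, so their shared direction is not 2 independent observations. Nefh had 61.9, 50.1 and 50.3 CPM (-0.75 ± 0.21, adjusted p = 0.0282). This call ended in 5 of the 6 fits that left out 1 library, all but the one without KCl 180 min replicate 1, with adjusted p up to 0.147, as well as with thinned counts and with counts summed over transcripts. Nefl and Nefm did not pass at this time (0.32 ± 0.24 and 0.24 ± 0.20).

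After 15 min of KCl at 23DIV, 1 of 10 genes passed against 6.23% of all genes (3.21% higher), a share of the members close to that of all genes. Nefl had 178, 294 and 119 CPM, of which the lowest lay within the basal range (log2 fold change 0.81 ± 0.24, adjusted p = 0.0301). The call was lost without KCl 15 min replicate 2, basal replicate 2 or basal replicate 3 (adjusted p up to 0.330), in a fit on the compared groups only and with counts summed over transcripts. After 15 min of 4APBic, 0 of 10 genes passed by the quasi-likelihood test or DESeq2, 0 had an unadjusted p under 0.05, and 0.0511% of all genes were called.

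**Figure D2:**
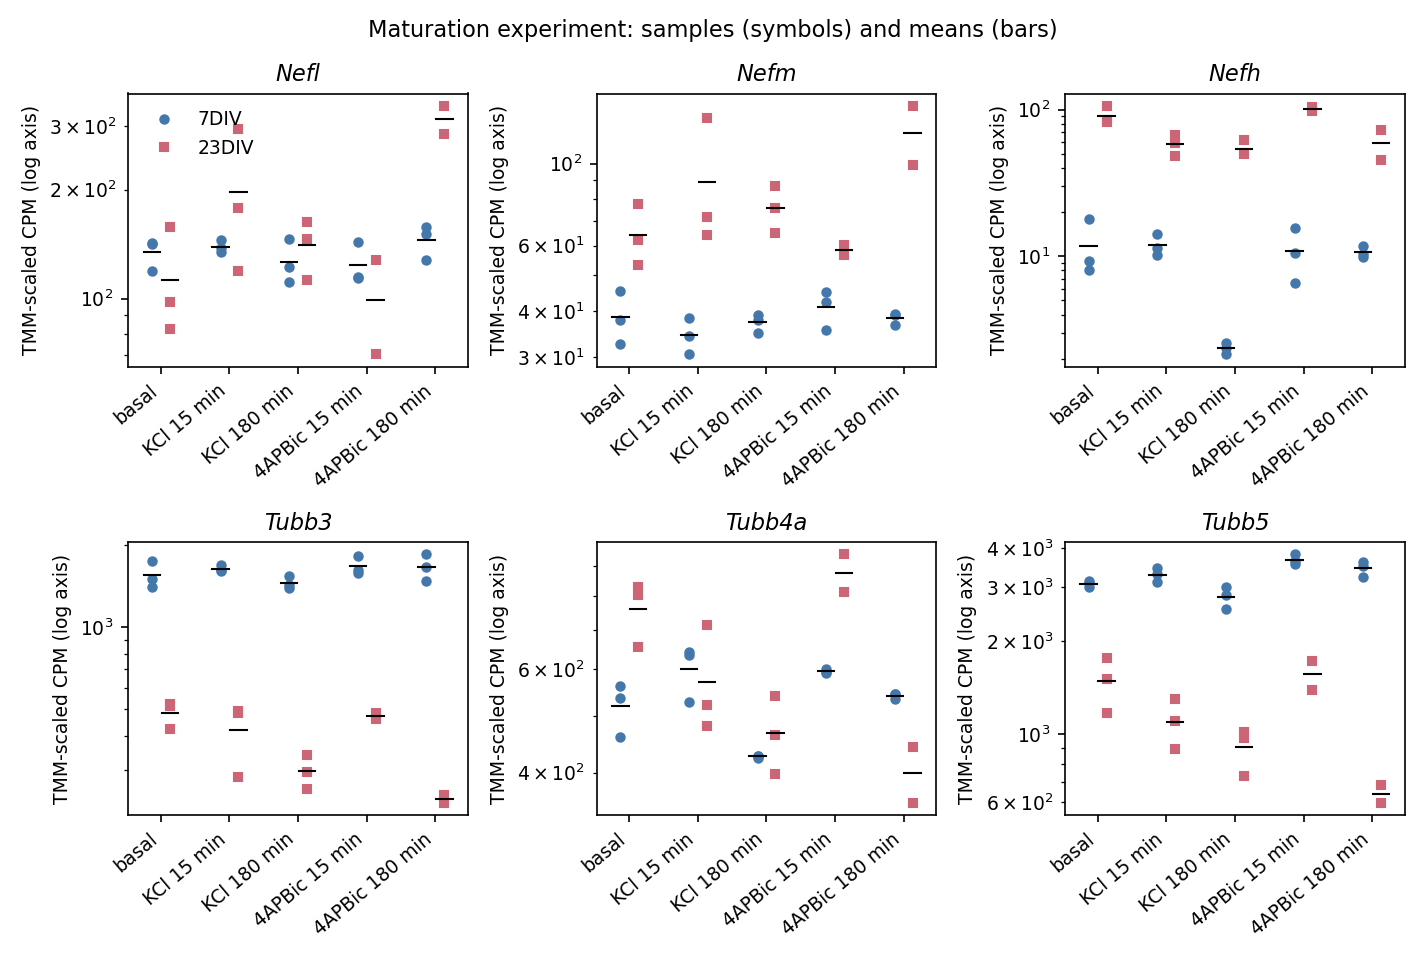
TMM-scaled CPM (log axis) of 3 neurofilament genes (top) and 3 beta-tubulin genes (bottom) in each sample of the maturation experiment at 7DIV (circles) and 23DIV (squares), with means as bars. Nefl at 23DIV was at 285 and 340.4 after 180 min of 4APBic, and Tubb5 at 598 and 683, each outside the range of the 23DIV basal samples.

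Other tubulins outside the 10 moved with them at 23DIV. Tuba4a fell after 180 min of KCl (-0.89) and of 4APBic (-1.05), and so did Tuba1b (-0.68 and -0.85), while Tubb4b fell with KCl (-0.63). These were 3 and 2 of 7 other tubulins tested. Microtubule-associated proteins moved in both directions after 4APBic, 1 of 31 higher (Stmn4, a stathmin that binds tubulin dimers, 1.02) and 3 lower, among them Map1b (-0.66). Of 18 tubulin-modifying enzymes 2 fell, one of them Vash1 (-1.19), and of 20 folding genes 1 rose (Pfdn2, 0.89) and 1 fell (Tbcc, -0.79). Of 8 other intermediate filament genes 2 fell, the glial and progenitor genes Gfap (-2.14) and Nes (-1.01). Of the 8 neurofilament partners 1 fell (Cdk5r2, -0.89), 1 of 18 motor genes fell (Kif21b, -0.65), and 0 of 4 severing genes passed by the quasi-likelihood test.

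Glial markers changed in the same samples. After 180 min of 4APBic at 23DIV, 3 of 9 astrocyte markers and 4 of 7 markers of the oligodendrocyte lineage fell, and 1 of the latter rose. Summed astrocyte markers were between 1762 and 3386 CPM against between 4645 and 5669 in basal, and summed oligodendrocyte lineage markers between 1026 and 1657 against between 2426 and 3212. Of 8 neuronal markers, 2 fell and 1 rose, with summed levels between 7158 and 7529.9 against between 7304 and 8517. After 180 min of KCl, 0 astrocyte and 2 oligodendrocyte lineage markers fell, and 0 of 8 neuronal markers passed. The part of these cells in the fall of the tubulins was not tested.

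Whether the responses differed between stages was tested directly, as the response at 23DIV minus that at 7DIV with an adjusted p under 0.05 as the threshold. For 180 min of 4APBic, 5 of 10 genes passed against 4.95% of all genes, 2.58% with a higher and 2.38% with a lower response at 23DIV. Nefl rose more at 23DIV, by 1.36 ± 0.36 on the log2 scale (adjusted p = 0.0236). The 7DIV samples of Nefl after 4APBic, at 151, 128 and 157 CPM, overlapped their own basal samples. Tuba1a (-0.66 ± 0.14, adjusted p = 0.00619), Tubb3 (-1.15 ± 0.22, adjusted p = 0.00228), Tubb4a (-0.99 ± 0.20, adjusted p = 0.00439) and Tubb5 (-1.37 ± 0.20, adjusted p = 1.60e-04) responded lower at 23DIV. At 7DIV the same tubulins had log2 fold changes between 0.062 and 0.16.

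The Nefl interaction was lost in 5 of 11 fits that left out a library, those without 7DIV 4APBic 180 min replicate 2, 7DIV basal replicate 2, 23DIV 4APBic 180 min replicate 2 or 23DIV basal replicate 2 or 3 (adjusted p up to 0.134), and with counts summed over transcripts. Those of Tuba1a and Tubb4a were lost only without 23DIV 4APBic 180 min replicate 2, at adjusted p of 0.0574 and 0.0660. Those of Tubb3 and Tubb5 held in all 11 of these fits. For KCl, 0 of 10 genes differed between stages at 15 min (2.03% of all genes did) or at 180 min (0.775%) by the quasi-likelihood test. DESeq2 called 1 and 0 of the 10 genes at these times, and 394 and 216 of all genes. An unadjusted p under 0.05 was found for 6 and 5 of the 10 genes and for 1833 and 1684 of all 11746 genes tested. Nefh, which fell with KCl at both stages, had an interaction of 1.48 ± 0.45 (adjusted p = 0.115). For 15 min of 4APBic, 0 of 10 passed by both tools and 0 had an unadjusted p under 0.05 (0.00851% of all genes were called).

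The stimuli experiment asked how KCl, Bic and TTXw differ over time in mature cultures. Nefl and Nefm rose at 15 min with KCl and at 15 and 45 min with Bic, and both genes were low in all cultures that had been in TTX. Column headers give the letter B to all KCl and Bic libraries at 15 and 45 min and to basal replicate 5. The other basal libraries, those of KCl and Bic at the latest time and all TTX and TTXw libraries carry A. The meaning of this letter is not given, and a difference that goes with it cannot be told apart from that of the early times. Basal replicate 5 had 199.8 CPM of Nefl and 55.7 CPM of Nefm, the lowest of basal. Times were not tested against each other. With KCl the samples of both genes at 15 min lay above those at 45 min, and with Bic the samples of Nefl at 45 min lay above those at 15 min, while those of Nefm overlapped. After 15 min of KCl, 5 of 10 genes rose and 0 fell, where 7.22% of all genes were called and 4.52% rose. The 5 were Nefl, Nefm, Tubb3, Tubb4a and Tubb5.

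In 21DIV basal, Nefl had 279, 286 and 199.8 CPM. After KCl it had 583 and 758 CPM at 15 min, 331 and 351 CPM at 45 min and 386 and 267 CPM at 180 min. Both samples at 15 min lay far above the highest basal sample, and those at 180 min overlapped basal. The log2 fold change at 15 min was 1.39 ± 0.16 (adjusted p = 4.43e-08). Nefm had 82.5, 98.2 and 55.7 CPM in basal and 216 and 276 CPM after 15 min of KCl (log2 fold change 1.64 ± 0.19, adjusted p = 6.52e-08), again without overlap. At 45 and 180 min of KCl 0 of 10 genes passed by the quasi-likelihood test and by DESeq2, and 0.765% of all genes were called at either time. An unadjusted p under 0.05 was found for 9 and 5 of the 10 genes and for 1342 and 1499 of all 12027 genes tested. The largest value at 45 min was that of Tubb5 (log2 fold change 0.56 ± 0.13, adjusted p = 0.0269), just under 1.5-fold.

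With Bic, 5 of 10 genes rose at 15 min (3.42% of all genes called, 2.4% higher), 4 at 45 min (7.45% called, 4.5% higher) and 0 at 180 min (0.765%) by the quasi-likelihood test. At 180 min DESeq2 called 0 too, and 4 had an unadjusted p under 0.05, beside 1030 of all 12027 genes tested. Nefl had 452 and 364 CPM at 15 min, 554 and 635 CPM at 45 min and 399 and 344 CPM at 180 min, each above all basal samples. The log2 fold changes were 0.68 ± 0.16 (adjusted p = 0.00771), 1.22 ± 0.16 (adjusted p = 6.12e-07) and 0.54 ± 0.16 (adjusted p = 0.130). Nefm had 176 and 133 CPM at 15 min and 167 and 257 CPM at 45 min, all above basal (0.99 ± 0.20, adjusted p = 0.00141, and 1.43 ± 0.19, adjusted p = 1.05e-06). At 15 min of Bic the call of Nefl was lost without Bic 15 min replicate 2 or basal replicate 5 (adjusted p up to 0.229), and that of Nefm without Bic 15 min replicate 2 (0.155). Nefh passed only at 45 min, with 69.0 and 49.3 CPM against 35.2, 31.6 and 30.3 CPM in basal (0.85 ± 0.20, adjusted p = 0.00449), and not without Bic 45 min replicate 1 (0.122). Ina had an adjusted p of 0.0310 there but stayed under 1.5-fold (0.54 ± 0.17).

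The 3 beta-tubulins that fell after 180 min of stimulation at 23DIV rose here at 15 min. In 21DIV basal, Tubb5 had 634, 728 and 627 CPM. It had 1096 and 1115 CPM after 15 min of KCl (0.74 ± 0.13, adjusted p = 1.95e-04) and 1014 and 1086 CPM after 15 min of Bic (0.66 ± 0.13, adjusted p = 0.00167), all above basal. The Bic value of Tubb5 lost its call with library totals in place of TMM factors. Tubb3 had 142, 184 and 124 CPM in basal, 249 and 246 CPM with KCl (0.73 ± 0.17, adjusted p = 0.00305) and 263 and 263 CPM with Bic at 15 min (0.81 ± 0.17, adjusted p = 0.00233). Tubb3 still passed at 45 min of Bic, at 229 and 228 CPM, though it did so in 1 of 5 fits that left out a library, the one without basal replicate 2 (adjusted p up to 0.104 in the others), and not with library totals, thinned counts or counts summed over transcripts. Tubb4a had 174, 197 and 213 CPM in basal, 314 and 274 CPM after 15 min of KCl (0.60 ± 0.15, adjusted p = 0.00904) and 264 and 329 CPM after 15 min of Bic (0.60 ± 0.16, adjusted p = 0.0197). Both calls of Tubb4a lay at the threshold of 1.5-fold. They were lost with library totals, with thinned counts and without basal replicate 1, that of KCl also without KCl 15 min replicate 1 and that of Bic without Bic 15 min replicate 3 and with counts summed over transcripts (adjusted p up to 0.0981 for KCl and 0.219 for Bic). Tuba1a and Tubb2a had an adjusted p of 0.00821 and 0.0252 after 15 min of KCl but rose by under 1.5-fold (0.44 ± 0.11 and 0.41 ± 0.12). KCl and Bic shared the 3 basal samples. With the number of the replicate as a block, the calls of all 5 genes at 15 min of Bic and that of Tubb3 at 45 min were lost, and 8 of 14 calls over both stimuli were left. Over all genes, the block left 199 calls in place of 411 at 15 min of Bic and 585 in place of 896 at 45 min. The labels do not say whether equal numbers mean paired samples. Basal replicate 5 is numbered so by its title, while its column header carries the number 2, which another basal library also has.

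Glial markers and other tubulins rose in the same samples, all of which carry the header letter B. Summed astrocyte markers lay between 4755 and 4793 CPM after 15 min of KCl, between 4534 and 4846 after 15 min of Bic and between 5192 and 5885 after 45 min of Bic, against between 2621 and 3221 in basal, without overlap. Of 9 astrocyte markers 4, 2 and 6 rose in these 3 comparisons, of 7 oligodendrocyte lineage markers 4, 1 and 3, and of 8 neuronal markers 1, 1 and 2. Summed neuronal markers lay between 6932 and 7447 CPM, between 7012 and 7236 and between 7193 and 7315, against between 5881 and 6072 in basal. The astrocyte filament Gfap rose by 1.35, 1.46 and 1.80 on the log2 scale. The part of these cells in the rise of the neurofilament and tubulin genes was not tested. Of 7 other tubulins 2 rose in each comparison, Tuba4a (0.82, 0.81 and 0.76) and Tuba1b (0.69, 0.77 and 0.62).

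**Figure D3:**
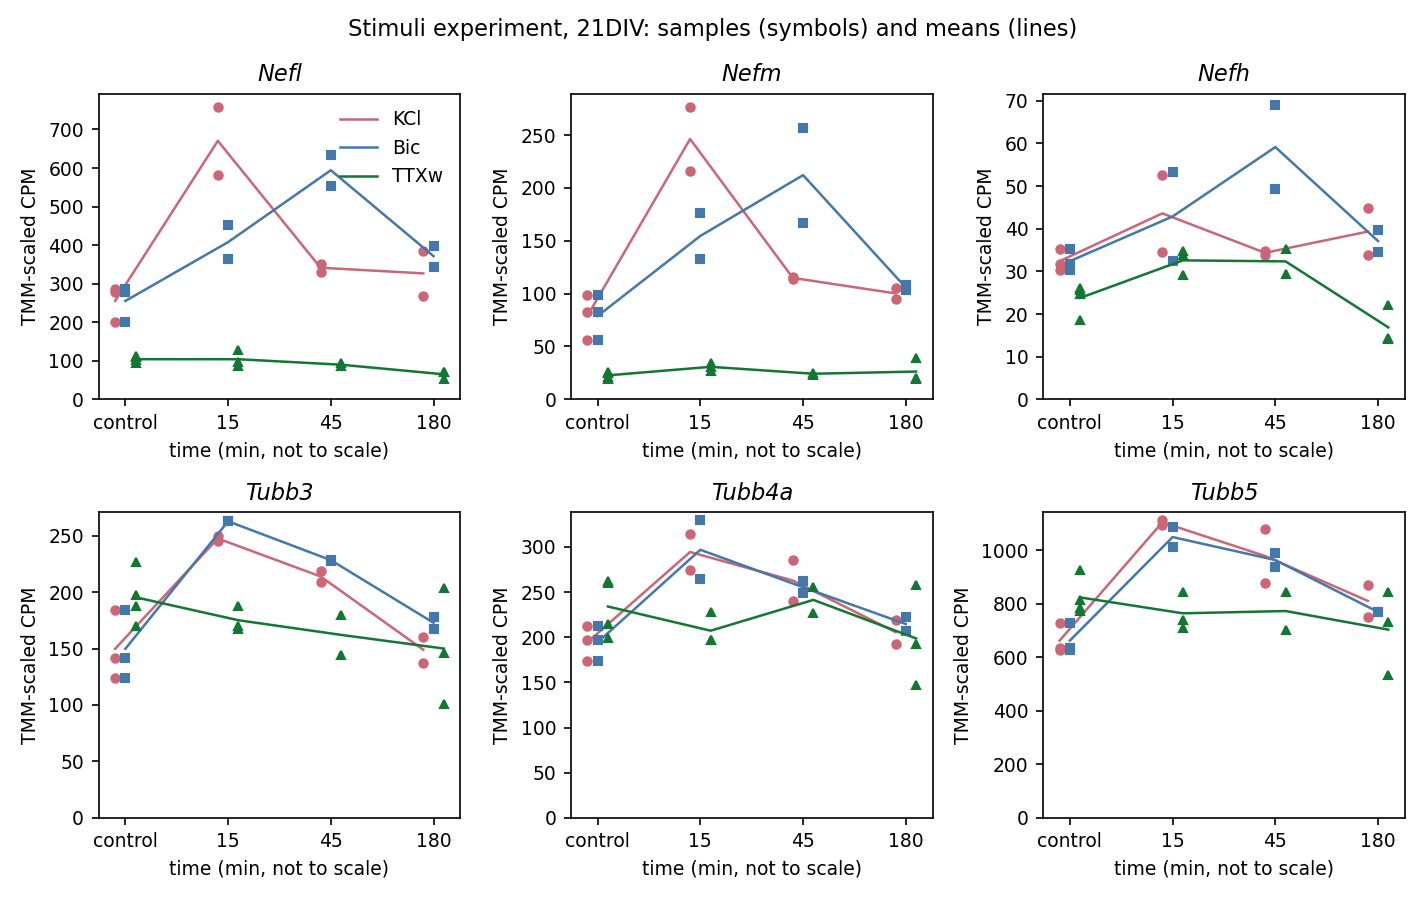
TMM-scaled CPM of 3 neurofilament genes (top) and 3 beta-tubulin genes (bottom) in the stimuli experiment at 21DIV, with samples as symbols and means joined by lines, for KCl (circles), Bic (squares) and TTXw (triangles). The 3 basal samples are drawn for both KCl and Bic, and the 4 basal TTX samples are the control of TTXw. Nefl reached 758 with KCl at 15 min and 635 with Bic at 45 min and was never above 128 in TTX or TTXw.

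Tubb3, Tubb4a and Tubb5 passed together at 15 min of KCl and of Bic in the stimuli experiment. They also did so at 23DIV after 180 min of KCl and of 4APBic. Tubb2a passed in none of these comparisons, but its mean moved in the same direction in each, so it is set apart by the threshold alone. The 120 bases before the transcription starts of these 4 genes are shown. Promoters of 6 of the 10 genes matched the RefSeq table of GRCm38.p6 (Tubb2a, Tubb3, Tubb4a, Tubb5, Tuba1a and Ina, not Nefl, Nefm, Nefh or Tubb2b). Capitals mark matches on either strand to any of 6 motifs, the cAMP response element TGACGTCA and its core TGACG, which overlaps it, the AP-1 motif TGANTCA, the EGR motif GCGNGGGCG, the TATA motif TATAAA and the motif CCAAT. The windows are chr8:123411433-123411552 (plus strand) for Tubb3, chr17:57087601-57087720 (minus strand) for Tubb4a, chr17:35838302-35838421 (minus strand) for Tubb5 and chr13:34078009-34078128 (minus strand) for Tubb2a.
Tubb3: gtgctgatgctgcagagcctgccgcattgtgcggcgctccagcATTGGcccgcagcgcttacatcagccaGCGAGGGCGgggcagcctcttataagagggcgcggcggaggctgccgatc
Tubb4a: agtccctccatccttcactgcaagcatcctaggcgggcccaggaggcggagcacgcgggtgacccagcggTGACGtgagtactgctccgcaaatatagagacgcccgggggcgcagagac
Tubb5: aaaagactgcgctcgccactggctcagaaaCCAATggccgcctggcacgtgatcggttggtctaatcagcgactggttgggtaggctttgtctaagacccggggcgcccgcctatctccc
Tubb2a: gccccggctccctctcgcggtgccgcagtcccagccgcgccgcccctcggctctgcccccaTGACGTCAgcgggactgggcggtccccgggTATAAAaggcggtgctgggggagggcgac
Of the 4, Tubb2a held the whole TGACGTCA, at bases -59 to -52 from the start, and TATAAA, and Tubb4a held the core TGACG. Tubb5 held CCAAT and Tubb3 CCAAT on the opposite strand and the EGR motif, and 0 of 6 matched promoters held the AP-1 motif. Among 32851 promoter windows of 300 bases, 1.79% held TGACGTCA, 20.8% TGACG, 7.81% TGANTCA, 5.55% GCGNGGGCG, 13.6% TATAAA and 37.4% CCAAT. No motif searched was common to Tubb3, Tubb4a and Tubb5 in these windows, and a match of letters is not a bound site.

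Both experiments used 55 mM KCl for 15 and 180 min, and whether the response differed between them was tested after the separate responses had been seen, in 1 fit of both experiments (the response at 23DIV minus that at 21DIV). At 15 min, 5 of 10 genes responded lower at 23DIV of the maturation experiment, against 6.02% of 11425 genes called in either direction and 3.23% lower. Tubb5 differed by -1.17 ± 0.23 on the log2 scale (adjusted p = 0.00813), Tubb4a by -1.01 ± 0.23 (adjusted p = 0.0139), Nefh by -1.07 ± 0.28 (adjusted p = 0.0277), Tubb3 by -0.94 ± 0.27 (adjusted p = 0.0485) and Tuba1a by -0.66 ± 0.19 (adjusted p = 0.0428). Within the maturation experiment, Tubb5 had 1296, 1098 and 896 CPM after 15 min of KCl against 1166, 1508 and 1769 CPM in basal, with overlapping ranges. Nefl, called higher in both, differed by -0.58 ± 0.40 (95% interval from -1.37 to 0.20). At 180 min 0 of 10 genes passed by the quasi-likelihood test (0.035% of all genes did) and 1 by DESeq2, which called 103 of all genes. An unadjusted p under 0.05 was found for 6 of the 10 genes and for 1448 of all 11425 genes.

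These calls were fragile. Without KCl 15 min replicate 2 of the stimuli experiment 0 of 10 genes passed at either time, and between 0 and 7 passed as each of 16 libraries was left out. The call of Tubb5 was lost only without that library (adjusted p = 0.0642), and that of Tubb4a without either KCl 15 min library of the stimuli experiment (up to 0.0697). Those of Tuba1a and Tubb3 held in 3 of 11 such fits each and that of Nefh in 7. The experiments differ in the day of harvest by their labels and in anything else that was not shared between them, which cannot be told apart. Astrocyte markers moved with the tubulins here too. As given above, after 15 min of KCl in the stimuli experiment, 4 of 9 astrocyte markers and 4 of 7 oligodendrocyte lineage markers rose, while after 15 min of KCl at 23DIV 0 of 9 and 1 of 7 changed, the latter lower. Of the other tubulins, Tuba4a (-1.18) and Tuba1b (-0.90) differed between experiments in the same direction. The part of the glial cells in the difference was not tested.

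**Figure D4:**
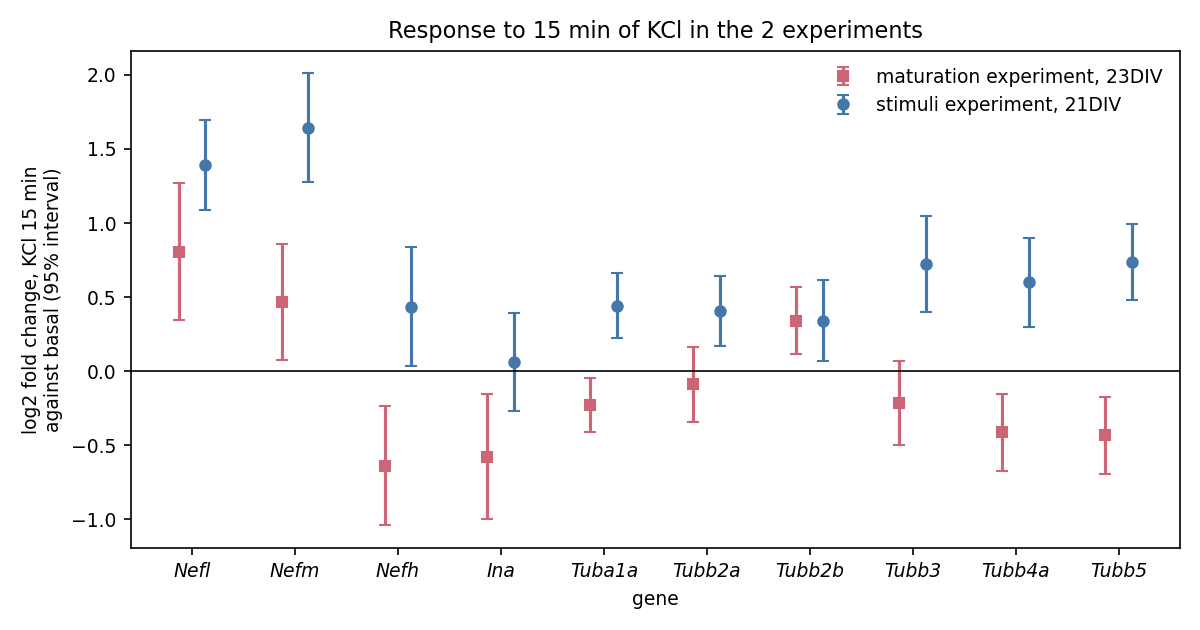
Log2 fold change after 15 min of KCl against basal for the 10 genes, with 95% intervals, at 23DIV of the maturation experiment (squares, 3 against 3 samples) and at 21DIV of the stimuli experiment (circles, 2 against 3 samples). Tubb5 was at -0.43 in the first and at 0.74 in the second, and Nefl was above 0 in both.

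Bic and KCl were also compared with each other at matched times. At 15 min 0 of 10 genes differed by the quasi-likelihood test or by DESeq2, and 0% of all genes were called by the former. An unadjusted p under 0.05 was found for 2 of the 10 genes and for 553 of all 12027 genes tested. The Nefl difference of Bic minus KCl was -0.71 ± 0.17 (95% interval from -1.05 to -0.37), so that a lower Nefl level with Bic at 15 min did not pass although the samples did not overlap. At 45 min Nefl (0.80 ± 0.17, adjusted p = 0.0125) and Nefm (0.89 ± 0.21, adjusted p = 0.0244) were higher with Bic, 2 of 10 genes against 0.682% of all genes (0.499% higher). Both calls were lost without Bic 45 min replicate 2 or either KCl 45 min replicate (adjusted p up to 0.313 for Nefl and 0.612 for Nefm) and with counts summed over transcripts, and that of Nefm also with thinned counts. At 180 min 0 of 10 differed by either tool, 0 had an unadjusted p under 0.05, and 0.723% of all genes were called. The tubulins Tubb3, Tubb4a and Tubb5 differed between Bic and KCl by between -0.075 and 0.086 at 15 min, and for Tubb5 the 95% interval ran from -0.36 to 0.21.

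Silencing for 48 h with TTX was compared with basal cultures. The labels do not say whether both came from the same preparation, so a difference between preparations cannot be told apart from that of TTX. Nefl and Nefm were lower in basal TTX, 2 of 10 genes against 21.6% of all genes called (10.8% lower), a share of the members close to that of all genes. Nefl had 101, 109, 112 and 94.4 CPM, all under the lowest basal sample (log2 fold change -1.30 ± 0.14, adjusted p = 2.44e-09). Nefm had 24.6, 25.6, 21.5 and 19.2 CPM, a fall by a factor of 3.52 (-1.81 ± 0.20, adjusted p = 2.91e-09). These were the only 2 member calls of this comparison, and they held in all alternative fits and in all fits that left out a library. Nefh had 18.6, 26.1, 25.8 and 24.6 CPM, each below basal, without passing (-0.44 ± 0.19, adjusted p = 0.0806). Ina was level, at 112, 112, 95.1 and 86.8 CPM against 103, 99.0 and 113 CPM (-0.057 ± 0.15, 95% interval from -0.34 to 0.23). Of the tubulins, Tubb2a was lower (-0.37 ± 0.10, adjusted p = 0.00440) and Tubb3 (0.38 ± 0.14, 0.0431) and Tubb5 (0.31 ± 0.11, 0.0316) higher at an adjusted p under 0.05, but all 3 stayed under 1.5-fold.

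In the same comparison, 9 of 9 astrocyte markers and 6 of 7 oligodendrocyte lineage markers were higher in basal TTX, and 1 of 8 neuronal markers was lower. Summed astrocyte markers lay between 7409 and 8456 CPM against between 2621 and 3221 in basal, and summed neuronal markers between 4863 and 5371 against between 5881 and 6072. The part of this shift in the lower Nefl and Nefm was not tested. Of 7 other tubulins 1 was lower, Tubb6 (-1.08). Prph, another neuronal intermediate filament, was lower (-1.69), Gfap was higher (2.57), and of 32 microtubule-associated proteins 8 were lower, led by Dclk1 (-1.56), and 1 higher. The tubulin-modifying enzymes Ttll7 (-1.22) and Ttl (-1.21) were lower, and Svbp, the partner that vasohibins need, was higher (0.81), and Katnal1 was the 1 of 4 severing genes that was lower (-0.65). Of 20 folding genes, 17 motor genes and 7 neurofilament partners, 0 passed by the quasi-likelihood test.

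After removal of TTX, the genes were compared with basal TTX. At 15 min 0 of 10 genes passed and 2 had an unadjusted p under 0.05, and at 45 min 0 passed and 1 did, by the quasi-likelihood test, with 0 by DESeq2 at both times. The quasi-likelihood test called 0% of all genes at 15 min and 0.382% at 45 min, when 5 of 5 stimulation check genes were up. Of all 12027 genes tested, 758 and 1207 had an unadjusted p under 0.05 at these 2 times. At 180 min 2 of 10 passed against 14% of all genes (7.33% higher, 6.69% lower), Nefl lower and Ina higher. This share of the members was close to that of all genes. Nefl had 72.0, 53.0 and 69.9 CPM against 101, 109, 112 and 94.4 CPM in basal TTX (log2 fold change -0.69 ± 0.17, adjusted p = 0.00220). Without TTXw 180 min replicate 2 this change fell under 1.5-fold (adjusted p = 0.0413). Ina had 173, 145 and 213 CPM against 112, 112, 95.1 and 86.8 CPM (0.80 ± 0.15, adjusted p = 8.46e-05). All 3 washed samples lay below basal TTX for Nefl and above it for Ina. Nefm had 19.0, 20.3 and 39.5 CPM, where the third replicate stood above the other two and the change did not pass (0.18 ± 0.25). The tubulins of this group were also uneven, with Tubb3 at 101, 146 and 203 CPM (-0.38 ± 0.15, adjusted p = 0.0659).

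Around them, 4 of 8 other intermediate filament genes rose at 180 min of TTXw, with nestin (Nes, 2.17), lamin A (Lmna, 1.73) and vimentin (Vim, 1.54) leading, and 1 fell. Of 7 other tubulins 2 rose, led by Tubb6 (2.34). Of 32 microtubule-associated proteins 6 fell, with Dclk1 (-1.06) and Dcx (-0.73) in front, of 17 motor genes 3 fell and 1 rose (Kif5b, 0.69), of 17 modifying enzymes 1 rose (Sirt2, 0.82) and 1 fell (Ttll7, -0.79), and of 7 neurofilament partners Dst rose (0.84) and Cdk5r1 fell (-0.80). Here 6 of 8 neuronal markers were lower and 5 of 9 astrocyte markers higher. Summed neuronal markers lay between 2871 and 3168 CPM against between 4863 and 5371 in basal TTX, and their part in the Nefl change was not tested.

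**Figure D5:**
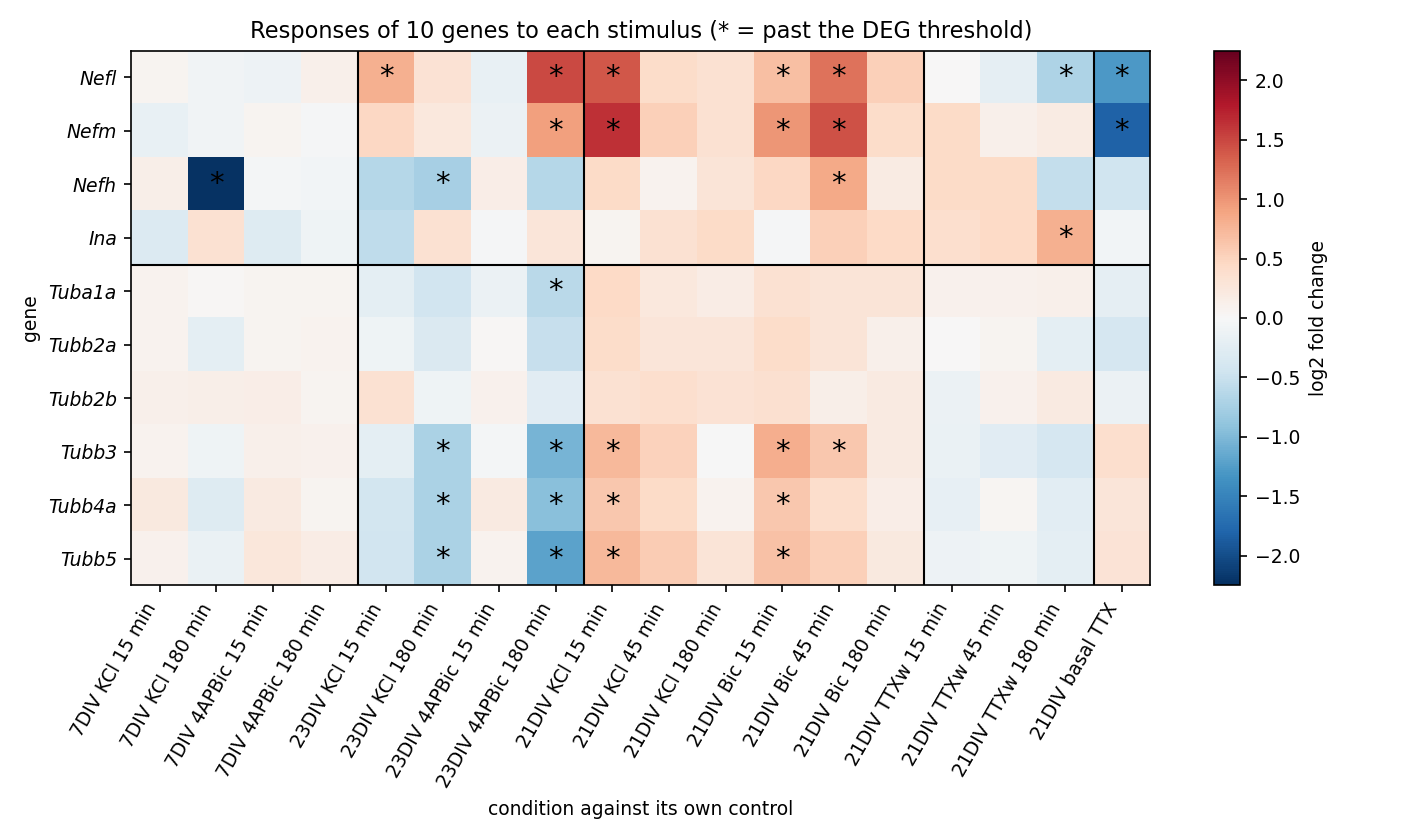
Log2 fold change (colour) of the 10 genes in each stimulated condition against its own control, and of basal TTX against basal, with a star where a gene passed the DEG threshold. Starred values ran from -2.22 for Nefh (7DIV, KCl 180 min) to 1.64 for Nefm (21DIV, KCl 15 min), and at 7DIV 1 of 40 fields carries a star.

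Over the 11 conditions of the stimuli experiment, the mean Nefl level was highest after 15 min of KCl (671 ± 124 CPM) and 45 min of Bic (594 ± 57 CPM), which did not differ beyond their SDs. Below them by more than the SDs came 15 min of Bic (408 ± 62.4 CPM), 180 min of Bic (371 ± 38.6 CPM), 45 min of KCl (341 ± 14.2 CPM), 180 min of KCl (327 ± 83.8 CPM) and basal (255 ± 48.0 CPM), neighbours that overlapped within their SDs. After a gap larger than the SDs of both sides came basal TTX (104 ± 7.98 CPM), TTXw at 15 min (104 ± 21.2 CPM) and at 45 min (89.8 ± 4.59 CPM), and last TTXw at 180 min (64.9 ± 10.4 CPM). The condition means of Nefm had a Pearson r of 0.985 to those of Nefl over the 11 conditions (log2 CPM), but not the same order. Nefm was lowest in basal TTX (22.7 ± 2.93 CPM), which did not differ beyond the SDs from TTXw at 180 min (26.3 ± 11.5 CPM). Over the 10 condition means of the maturation experiment the Nefh order split by stage, and 7DIV after 180 min of KCl (2.36 ± 0.204 CPM) stood below all others by more than the SDs.

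Among the tubulins, the condition means of Tuba1a and Tubb3 had r = 0.993 in the maturation experiment, and Tuba1a and Tubb2b 0.991, values that mostly describe the 2 stages. In the stimuli experiment Tubb3 and Tubb5 had r = 0.936, and Tubb4a and Tubb5 0.944. The genes whose condition means followed Nefl most closely in the stimuli experiment were Csnk1g3 (r = 0.992), B230216N24Rik (0.989) and Mapk4 (0.987), and in the maturation experiment Apip (0.962), Faim (0.959) and Eif4e2 (0.944). For Nefh they were Tanc1 (0.989), Plekha3 (0.989) and Fbxo44 (0.988) in the maturation experiment and Crym (0.955), Lingo3 (0.947) and Lrrtm4 (0.943) in the stimuli experiment. For Tuba1a they were 2700081O15Rik (0.998), Crip2 (0.997) and Dcx (0.996), then Sik2 (0.987), Nptx2 (0.978) and Sgk1 (0.978), and for Tubb2b Pak6 (0.997), Mir670hg (0.997) and Nrep (0.997), then Vapa (0.951), Tmem259 (0.950) and Arap2 (0.941). These are descriptions over 10 or 11 means from shared libraries and were picked as the highest of all genes with an average log2 CPM of at least 3.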

How the data were processed

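The authors aligned CEL-Seq2 reads to mm10 with STAR and counted them per RefSeq transcript with ESAT, and the deposited values are raw counts. Versions, strand use and any collapsing of molecular identifiers are not given in the sources used here. Transcripts were matched to 28492 and 28216 genes, and 18.5% and 19.2% of counts, on transcripts without a match, were left out. The fits, on genes that exceeded 5 CPM in 2 or more samples, were made with edgeR 4.0.16 (quasi-likelihood test, TMM factors, R 4.3.3), one fit per experiment or comparison family, with Benjamini-Hochberg adjustment over all genes tested. A call needed an adjusted p under 0.05 and a 1.5-fold change, or the adjusted p alone for interactions. The steps were tested on simulated data for 23DIV against 7DIV basal, 180 min of 4APBic at 23DIV and 15 min of KCl at 21DIV. Log2 fold changes of 1 in size were recovered in 72.2%, 58.6% and 74.5% of changed genes, and those of 2 in 98.8%, 96.6% and 100%. A gene that did not pass may thus still have changed by 1 on the log2 scale. DESeq2 1.42.0 and other scalings, filters and left-out libraries were alternatives. The 10 genes and all lists were chosen with earlier results of these data known, and the genes named from a list were the called ones with the largest change at an average log2 CPM of at least 3. The comparison of KCl between experiments was added after the data had been seen. Counts reached down to 5 for Nefh. Replicates differed by more than counting error (in 48 pairs, the chi-square divided by its degrees of freedom had a median of 4.28 and ran from 2.17 to 20.2), so the spread between samples sets the precision.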

Additional observations from a re-analysis of the deposited data

Results flagged for a closer look

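Differences between the responses of 2 groups passed their own test in 10 cases. After 180 min of 4APBic, the response at 23DIV minus that at 7DIV was 1.36 (log2) for Nefl, -0.66 for Tuba1a, -1.15 for Tubb3, -0.99 for Tubb4a and -1.37 for Tubb5. After 15 min of KCl, the response at 23DIV of the maturation experiment minus that at 21DIV of the stimuli experiment was -1.07 for Nefh, -0.66 for Tuba1a, -0.94 for Tubb3, -1.01 for Tubb4a and -1.17 for Tubb5, in a test added after the data had been seen.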

How the results depend on the processing

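Of 280 values of the 10 genes in 28 comparisons, 49 passed the threshold. The share of all genes that passed is given with each comparison above. Of the 49 calls, 33 stayed past the threshold in every alternative fit on all samples. In every fit that left out 1 of 55 samples 27 did so, and no called value changed sign. Without the filter on low counts, 11 interactions by stage passed in place of 5, and 8 differences in the KCl response by experiment in place of 5. Calls over all genes rose too. By stage they rose from 238 to 492 for KCl at 15 min and from 91 to 305 at 180 min. For 4APBic at 180 min they rose from 582 to 778, and for KCl at 15 min by experiment from 688 to 1101. The 5 member calls for KCl by experiment became 3 with library totals, 3 in a fit on the compared groups only and 2 with counts summed over transcripts. Over all genes these fits called 728, 675 and 449 at 15 min. Bic against KCl gave 1 member call with thinned counts and 0 with summed counts, in place of 2. At 45 min these fits called 54 and 28 of all genes, in place of 82. Leaving out 1 library gave between 7 and 8 calls for 23DIV against 7DIV basal, 1 for stimuli at 7DIV, between 7 and 14 at 23DIV (7 without basal replicate 3), between 2 and 9 for interactions by stage (2 without 23DIV 4APBic 180 min replicate 2), between 11 and 17 for KCl and Bic at 21DIV, between 1 and 4 for TTXw (1 without TTXw 180 min replicate 2 and 4 without replicate 3), 2 for basal TTX, between 0 and 2 for Bic against KCl, and between 0 and 7 for KCl by experiment. Calls over all genes in the fits without 1 library are not given. With the replicate block, 8 member calls in place of 14 were left for KCl and Bic, and 2 in place of 5 for KCl by experiment. Over all genes, the block left 567 calls in place of 868 at 15 min of KCl and 199 in place of 411 at 15 min of Bic. At 45 min of Bic it left 585 in place of 896, and for KCl at 15 min by experiment 213 in place of 688. Same-numbered samples deviated together with r between -0.25 and 0.10 over 44 pairs (median 0.00080), 1 of them over 0.1. Over 123 pairs with other numbers, r ran from -0.17 to 0.17 (median -0.0030), with 7 over 0.1. Pooled in this way, same-numbered pairs did not stand apart, but these values cannot exclude pairing within a single comparison. The cause of these changes was not tested.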
